A study of Mus musculus with 12 samples.

Results

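The Notch receptors and ligands analysed here were Notch1, Notch2, Notch3, Notch4, Jag1, Jag2, Dll1, Dll4, Dlk2 and Dner, chosen by name and not by their values. They were 10 of the 27754 genes kept from the table, and all 10 were among the 18400 genes tested. RNA came from the cochlear sensory epithelium of neonatal mice of mixed C57BL/6 and CD1 background, freed from the tissue beneath it with Cell Recovery Solution, and each library held both ears of 1 pup. Treated pups were Sox2-CreER/+; β-catenin-flox(Exon3)/+, in which Cre removes exon 3 of Ctnnb1 in SOX2+ cells and leaves β-catenin that escapes degradation. Untreated pups were β-catenin-flox(Exon3)/+ littermates without Cre. Pups of both genotypes received tamoxifen through the milk of a mother injected 1 or 4 days after delivery, and were taken 72 h later. P1 and P4 therefore name the day of tamoxifen, and the tissue was collected at P4 and P7. At P1 there were 3 treated and 3 untreated libraries, at P4 there were 2 and 3, and P4 treated replicate 2 was not analysed here. Sox2-CreER is a knock-in at Sox2, so that treated and untreated pups also differed in Sox2 dose and in the presence of Cre.

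Notch receptors are transmembrane proteins that are cut when a ligand on a neighbouring cell binds and pulls on them. The freed intracellular part joins the DNA-binding protein RBPJ and switches on target genes such as those of the Hes and Hey families. In the organ of Corti, hair cells carry the ligands Dll1 and Jag2, and signalling through Notch1 in the cells around them keeps those cells as supporting cells. Jag1 is a ligand carried by the supporting cells themselves and by the early prosensory domain. Notch4 and Dll4 are best known from endothelium, and Notch3 from pericytes and smooth muscle. Dlk2 and Dner lack the DSL domain of the canonical ligands and have been described as non-canonical ligands.

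The question put to these genes was whether stabilised β-catenin changed the supply of receptor and ligand RNA at either age, and how that supply differed between the ages. In GRCm38 (mm10) coordinates the 4 receptor genes were Notch1 at chr2:26457903-26516663 on the minus strand, Notch2 at chr3:98013527-98150361 on the plus strand, Notch3 at chr17:32120820-32166852 on the minus strand and Notch4 at chr17:34564268-34588503 on the plus strand. The canonical ligands were Jag1 at chr2:137081456-137116644 (minus), Jag2 at chr12:112907819-112929776 (minus), Dll1 at chr17:15367354-15376872 (minus) and Dll4 at chr2:119325784-119335962 (plus). Dlk2 lay at chr17:46297421-46303271 (plus) and Dner at chr1:84369839-84696221 (minus). The principal transcripts ran from 1528 bases in 6 exons for Dlk2 to 10500 bases in 34 exons for Notch2. The library kit did not mark strand, so reads in exons shared with an antisense gene could not be assigned. Exonic stretches shared with a gene on the opposite strand were 214 bases between Dll4 and Gm14207, 867 bases between Dll1 and A930024N18Rik, 51 bases between Dlk2 and Abcc10, 488 bases between Notch3 and Gm17276, 77 bases between Dner and Mir5126, and 1068 and 414 bases between Notch1 and 0610009E02Rik and Gm13568. Abcc10 had a median of 821 normalized counts over the 11 libraries (578 to 1078), while Dlk2 ranged from 1152 to 2173. Gm13568 had a median of 182, 0610009E02Rik 37 and Gm17276 8, against at least 5861 for Notch1 and 2072 for Notch3. Gm14207 had a median of 49 normalized counts over the 11 libraries and A930024N18Rik had 31, while Dll4 itself ranged from 147 to 373 and Dll1 from 79 to 238.

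The promoter sequences of 3 genes on which the results below turn are shown because β-catenin acts through TCF/LEF factors at DNA. They come from RefSeq windows (GRCm38.p6), 5′ to 3′ on the strand of the gene, and each stops before any annotated transcript of that gene. The stretches were chr2:137116645-137116770 (minus strand) for Jag1, 126 bases long, chr1:84696222-84696471 (minus) for Dner and chr2:119325534-119325783 (plus) for Dll4, each 250 bases long. Capitals mark a GC box (GGGCGG on either strand), the one searched motif found in these stretches.
Jag1: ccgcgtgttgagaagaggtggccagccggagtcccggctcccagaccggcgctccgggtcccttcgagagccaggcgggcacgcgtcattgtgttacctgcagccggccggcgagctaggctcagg
Dner: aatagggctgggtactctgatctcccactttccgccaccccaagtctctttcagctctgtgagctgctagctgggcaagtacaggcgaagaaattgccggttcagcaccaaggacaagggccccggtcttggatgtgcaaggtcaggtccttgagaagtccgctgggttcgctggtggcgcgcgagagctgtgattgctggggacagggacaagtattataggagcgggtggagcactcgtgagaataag
Dll4: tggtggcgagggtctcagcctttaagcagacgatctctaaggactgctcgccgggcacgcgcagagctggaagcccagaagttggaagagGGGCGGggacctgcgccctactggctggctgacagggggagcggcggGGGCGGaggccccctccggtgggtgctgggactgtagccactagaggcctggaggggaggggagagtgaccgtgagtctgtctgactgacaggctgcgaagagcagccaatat
All 10 genes had at least 1 RefSeq window, 12 windows in all, and the 250 bases before the start were searched on both strands. The TCF/LEF motif was searched as CTTTG followed by AA, AT, TA or TT. It was in 0 of the 12 windows, against 14.8% of 32851 windows over all genes. The RBPJ core TGGGAA was also in 0 of 12, against 21.6% of all windows. The E-box CANNTG, the site of bHLH factors such as ATOH1, was in 5 of the 12 (Jag1, both Dll1 windows, Notch4 and 1 of the Dlk2 windows), against 66.2% of all. In Jag1 it lay 82 to 77 bases before the RefSeq start, inside the longer annotated transcript and so outside the stretch printed above. GC boxes were in 6 of 12 windows, against 32.7% of all. GC content of the 12 windows ran from 55.6% for a Dlk2 window to 87.2% for Jag2, all above the median of 52.4% over all windows. No match says only that these letters are absent from these bases.

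The deposited values are whole-number normalized counts. The labels and methods do not say whether they began as reads counted per gene or as transcript estimates, which bears on how reads shared with antisense genes and transcript length enter them. They summed to between 41225626 and 44153992 per library. Ctnnb1, whose deleted exon is not visible in a count per gene, did not pass the test at either age. Sox2 was lower in treated libraries, at 5493 ± 540 (SD, n = 3) against 8778 ± 1206 (n = 3) at P1 and 7785 ± 294 (n = 2) against 10350 ± 215 (n = 3) at P4, and passed the test at P1 alone (adjusted p = 0.03 and 0.272; limma, Benjamini-Hochberg). Hair cell and supporting cell markers were present in every library, with sums over 12 hair cell genes of 27321 to 49030. The sum over 10 supporting cell genes, Sox2 among them, was 122927 to 135266 in P1 treated and 96728 to 117715 in P1 untreated libraries. At P4 it was 169864 to 170529 against 153213 to 160085, and it was higher in treated libraries without overlap at both ages. The median log2 difference of these supporting cell genes was 0.1 at each age. Marker genes of other cells were detected too: the sum over 14 endothelial genes was 3286 to 5342 in P1 treated and 7985 to 11000 in P1 untreated libraries, and 3139 to 3320 against 3894 to 7686 at P4. The sum over 10 pericyte and smooth muscle genes was 1385 to 3617 against 4066 to 4619 at P1 and 1041 to 1755 against 1642 to 3315 at P4. The sum over 10 immune genes was 1687 to 3518 against 3873 to 5108 at P1. At P4 it was 2785 to 4792 against 3392 to 5240, which overlapped. Over 10 mesenchyme genes the sum was 132159 to 207682 against 143864 to 164395 at P1. At P4 it was 191433 to 214585 against 186649 to 205682, and it overlapped at both ages. The median log2 difference of these mesenchyme genes was -1.25 at P1 and -0.84 at P4. Over 7 glial genes the sum was 33109 to 38220 against 25653 to 30979 at P1, and 34391 to 38061 against 29480 to 40992 at P4. Xist, the RNA of the inactive X chromosome, was at 13 to 26 in P1 treated, 3268 to 4180 in P4 treated and 32 to 39 in P4 untreated libraries, and ran from 16 to 3030 in P1 untreated libraries. Between the treated ages sex and age therefore cannot be told apart, and at P4 sex and treatment cannot be told apart. The P1 untreated libraries, mixed in Xist, were compared with groups that were low throughout. Sex was thus also partly aligned with treatment at P1 and with age in untreated pups. The libraries also differed in how long transcripts fared against short ones. A long-transcript index, the median log2 deviation of genes of at least 5 kb minus that of genes under 2 kb, ran from -0.189 in P4 untreated replicate 2 to 0.151 in P4 treated replicate 3.

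Jag1 was by far the most abundant of the 10 RNAs per length. Divided by the length of the principal transcript, its level was 3846 ± 1021 normalized counts per kb (SD, n = 11), and its lowest library (2340 per kb) was above the highest library of any other member (Dlk2, 1422 per kb). Dlk2 came next at 1061 ± 232 per kb and Notch1 after it at 883 ± 183 per kb, but their order is not firm, since Dlk2 exceeded Notch1 in 7 of 11 libraries. Notch3, at 332 ± 44.7 per kb, and Jag2, at 324 ± 109 per kb, were likewise not separated (Notch3 higher in 7 of 11 libraries). Dner stood at 196 ± 42.1 per kb and exceeded Notch2, at 90.7 ± 23.5 per kb, in all 11 libraries. The lowest levels were those of Dll4 at 64.6 ± 19.6, Dll1 at 36.3 ± 11.9 and Notch4 at 17.8 ± 7.93 per kb. Dll4 was above Dll1 in 10 of 11 libraries and Dll1 above Notch4 in 10 of 11. With the merged exons of each gene as the length, the order of the means was the same, and Dlk2 then exceeded Notch1 in 8 and Notch3 exceeded Jag2 in 10 of 11 libraries.

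**Figure D1:**
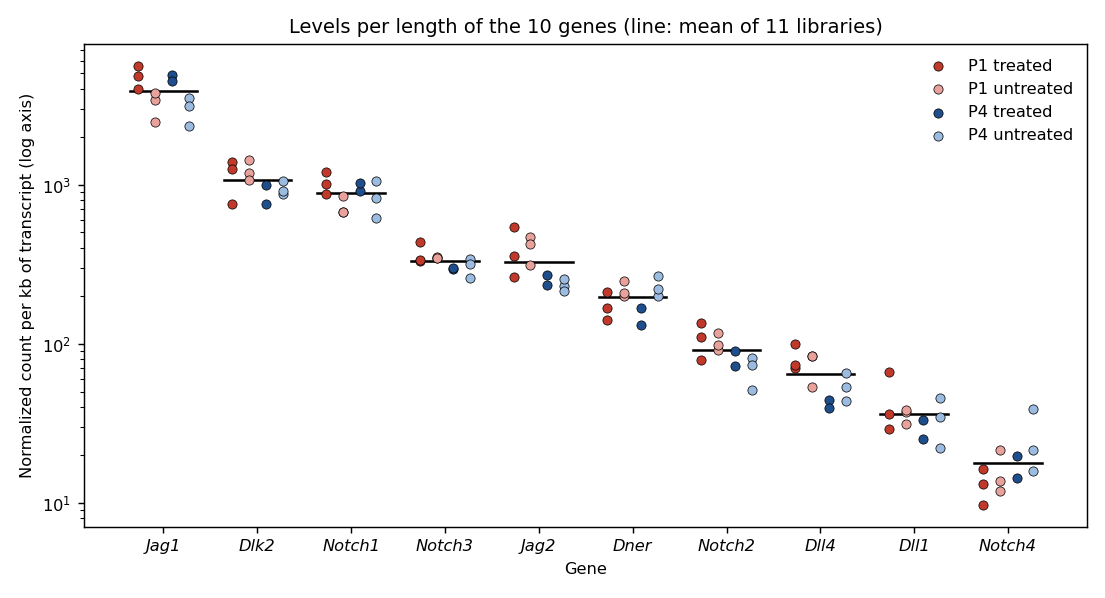
Levels of the 10 genes per length. The y axis is the normalized count per kb of the principal transcript on a log scale, each point is 1 library coloured by group, and the line is the mean of 11 libraries. Every Jag1 point (2340 to 5563 per kb) sits above every point of the other genes.

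Among the receptors, Notch1 supplied 59.3% to 72.6% of the summed level per kb, Notch3 21% to 31.1%, Notch2 4.96% to 8.92% and Notch4 0.679% to 3.03%. Among the canonical ligands, Jag1 supplied 85.2% to 94.1%, Jag2 4.45% to 11.8%, Dll4 0.817% to 2.12% and Dll1 0.524% to 1.31%. The summed ligand level exceeded the summed receptor level in every library, by a ratio of 2.36 to 3.99. In bulk RNA, fewer cells of a type and less RNA per cell cannot be told apart, and this holds for every comparison that follows.

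Jag1 was the member with the largest difference on treatment at P1. Its normalized counts were 22245, 31218 and 27014 in P1 treated and 18988, 21216 and 13902 in P1 untreated libraries, so that every treated library was above every untreated one. The fold was 1.5 (log2 0.58, SE 0.187, 95% interval 0.17 to 1.0), but Jag1 did not pass the test over all genes (adjusted p = 0.242; limma, Benjamini-Hochberg). A gene was called when its adjusted p was under 0.05 and its log2 difference over 0.32 in size. None of the 10 members was called in this comparison, in which 0.353% of the 18400 genes tested were called, 0.261% higher and 0.0924% lower. Unadjusted p-values were under 0.05 for 2 members (Jag1 and Notch1, both higher), against 12.2% of all genes in either direction.

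The direction was the same for Jag1 at P4. The P4 treated libraries gave 27554 and 25062, and the P4 untreated libraries 19528, 13132 and 17578, again without overlap. The fold was 1.59 (log2 0.67, SE 0.209, 95% interval 0.21 to 1.13; adjusted p = 0.294; limma). With Xist as a covariate, which at P4 separates the groups as treatment does, the log2 difference was 0.82 (adjusted p = 0.61). The sum of supporting cell markers was also higher in treated libraries without overlap at both ages (169864 to 170529 against 153213 to 160085 at P4), and its part in the Jag1 values was not tested. Of the 10 supporting cell genes, 2 were called higher and 1, Sox2, lower at P1, and none was called at P4. Before adjustment 2 of the 10 were higher and 2 lower at P1, and 3 were higher and 2 lower at P4 (p under 0.05; limma). No member was called at P4 either, where 0.0543% of all tested genes were called, 0.0326% higher and 0.0217% lower. Unadjusted p-values were under 0.05 for Jag1 (higher) and Dner (lower), against 11.6% of all genes. Ranges that did not overlap were common in these small groups. At P1 they were found for 2 of the 10 members (Jag1 and Notch1, both higher), against 15.3% of all tested genes (6.95% higher and 8.33% lower). At P4 they were found for 2 members (Jag1 higher, Dner lower), against 33.5% of genes (16.6% higher and 16.9% lower).

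**Figure D2:**
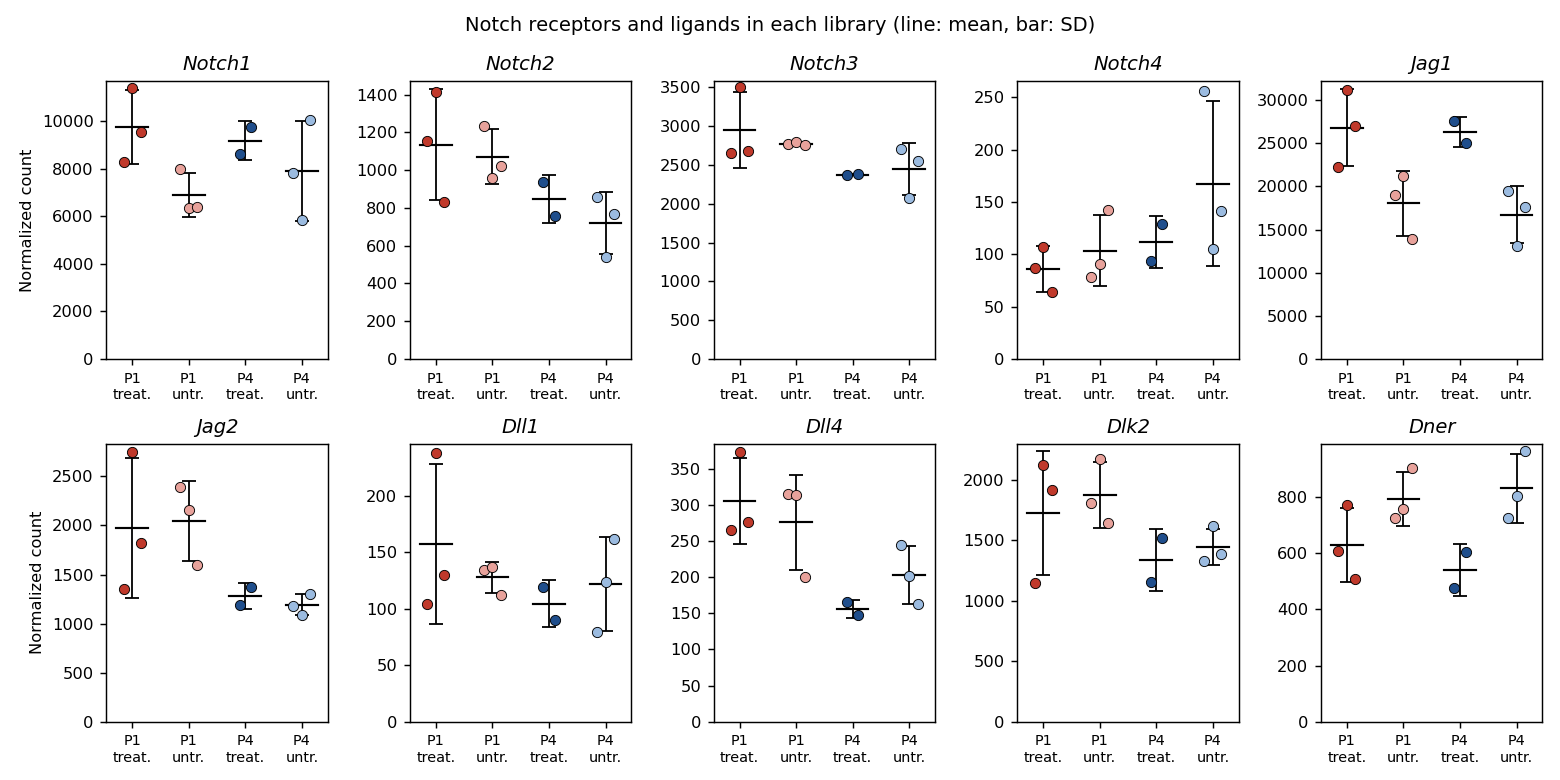
Normalized counts of the 10 genes in each library. Each panel is 1 gene with its own y axis from 0, points are libraries, the line is the group mean and the bar its SD (n = 3, 3, 2 and 3). Jag1 in treated libraries (22245 and above) does not overlap untreated libraries (21216 and below) at either age.

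The long-transcript index moved with Jag1. It was 0.143 and 0.151 in the P4 treated libraries and between -0.189 and 0.018 in the P4 untreated ones, so the groups did not overlap. The lowest Jag1 values among untreated libraries, 13902 in P1 untreated replicate 3 and 13132 in P4 untreated replicate 2, were in the libraries with the lowest indices (-0.158 and -0.189). With the index as a covariate, the log2 fold change of Jag1 was 0.23 at P4 (adjusted p = 0.822) and 0.49 at P1 (adjusted p = 0.155; limma). At P1 the indices overlapped between groups. P1 treated replicates 1 and 3 had indices of -0.0929 and -0.115, below P1 untreated replicates 1 and 2 (-0.0294 and -0.0152), and held more Jag1. The covariate was added after the data were seen.

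**Figure D3:**
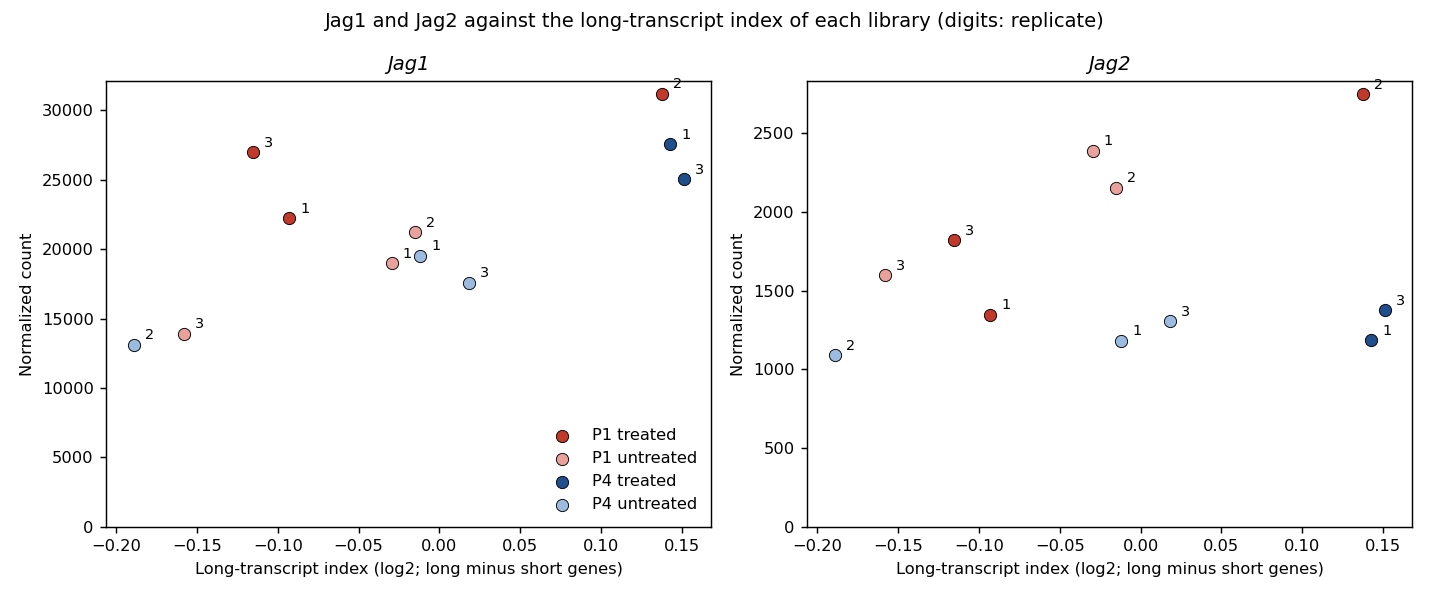
Jag1 and Jag2 against the long-transcript index. The x axis is the index (log2 units), the y axis the normalized count from 0, and each point is 1 library with its replicate number. For Jag1, both P4 treated libraries lie right of every P4 untreated library (0.143 and 0.151 against 0.018 or less), while P1 treated replicates 1 and 3 lie left of P1 untreated replicates 1 and 2.

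When treatment and age were fitted as additive terms over all 11 libraries, a model chosen after the data were seen, Jag1 was 1.54-fold higher in treated libraries (log2 0.62, SE 0.134, 95% interval 0.33 to 0.91). Its adjusted p of 0.0506 (limma, Benjamini-Hochberg) lay just above the threshold, so again 0 of 10 members were called, against 1.22% of all genes (0.62% higher and 0.598% lower). Other settings put this value on either side of the threshold: it was 0.0471 after rescaling by the median of ratios, 0.0489 with a pseudocount of 8, 0.067 with Xist as a covariate, 0.103 with the replicate number as a block and 0.171 with the long-transcript index as a covariate, and without 1 library it ran from 0.0263 (without P1 treated replicate 1) to 0.132 (without P4 treated replicate 3).

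Notch1, the receptor that keeps supporting cells from becoming hair cells, was measured at 8289, 11413 and 9565 in P1 treated and 7985, 6345 and 6408 in P1 untreated libraries. The lowest treated library was just above the highest untreated one, and the log2 difference was 0.49 (SE 0.186; adjusted p = 0.318; limma). At P4 the groups overlapped, with 8611 and 9771 in treated and 7829, 5861 and 10039 in untreated libraries (log2 0.25, SE 0.208; adjusted p = 0.675). Notch2 was at 1134 ± 293 and 1072 ± 145 (n = 3 each) in P1 treated and untreated libraries, and Notch3 at 2658, 3510 and 2676 against 2773, 2796 and 2754. At P4, Notch2 was at 847 ± 129 (n = 2) in treated and 721 ± 164 (n = 3) in untreated libraries, and Notch3 at 2378 ± 7.78 and 2445 ± 333. The 95% intervals of the treated-to-untreated fold ran from 0.74 to 1.46 for Notch2 and from 0.869 to 1.28 for Notch3 at P1, and from 0.814 to 1.74 and 0.79 to 1.21 at P4.

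Notch4 was the rarest and most variable receptor. It was at 87, 107 and 64 in P1 treated and 78, 91 and 142 in P1 untreated libraries, and at 94 and 129 against 256, 105 and 141 at P4. The groups overlapped at both ages, and the log2 differences were -0.25 (SE 0.365) and -0.50 (SE 0.408). The sums of endothelial markers, given above, were lower in treated than in untreated libraries at both ages, and their part in the Notch4 values was not tested. Of the 14 endothelial genes, 0 were called at either age. Before adjustment 1 of them was higher and 4 were lower at each age (p under 0.05; limma).

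**Figure D4:**
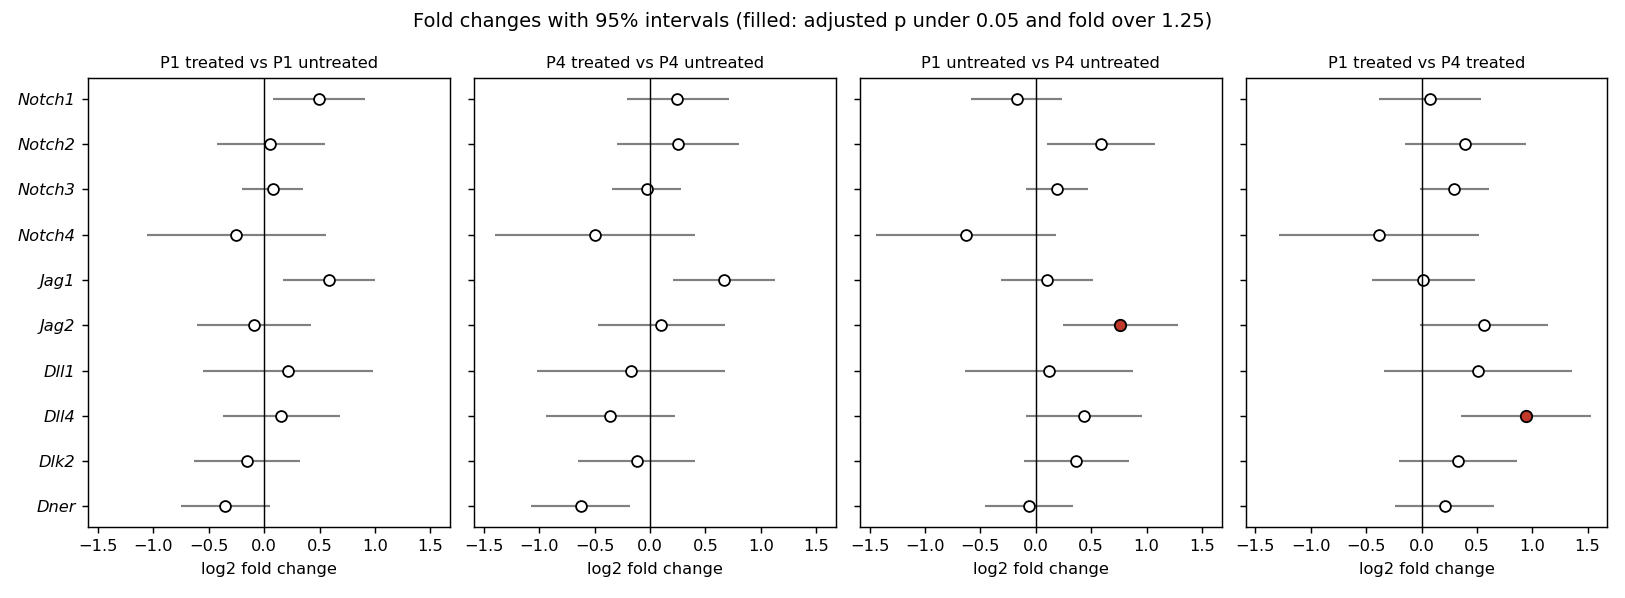
Log2 fold changes of the 10 genes in the 4 comparisons. Points are limma estimates on the log2(normalized count + 1) scale, lines are 95% intervals, and filled points were called (adjusted p under 0.05 and a log2 difference over 0.32 in size). Jag2 between untreated ages (0.76) and Dll4 between treated ages (0.95) are the filled points, and the treatment panels have none.

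Of the other canonical ligands, Jag2, the Jagged ligand of hair cells, did not separate by treatment, with log2 differences of -0.10 (SE 0.232) at P1 and 0.10 (SE 0.26) at P4. Its counts were 1348, 2750 and 1821 in P1 treated and 2391, 2154 and 1598 in P1 untreated libraries. The highest and the lowest of these 6 values were both from treated pups. Dll1, the Delta ligand of nascent hair cells, was at 104, 238 and 130 against 134, 137 and 112 at P1, and at 119 and 90 against 79, 124 and 162 at P4. Its 95% intervals for the fold were wide, at 0.685 to 1.97 for P1 and 0.492 to 1.6 for P4. Dll4 was at 265, 373 and 276 against 315, 313 and 200 at P1, and at 165 and 147 against 244, 201 and 163 at P4, with log2 differences of 0.16 (SE 0.236) and -0.36 (SE 0.264). P1 treated replicate 2 held the highest value of 7 of the 10 members, while it was the highest library for 12% of all tested genes and for 18.4% of genes of at least 5 kb. P4 untreated replicate 2 held the lowest value of 5 members and was lowest for 12.9% of all tested genes and 18.6% of the long ones.

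Dner, a ligand-like transmembrane protein with EGF repeats found mainly in neurons, differed in the opposite direction to Jag1. Its counts were 606, 770 and 508 in P1 treated and 723, 755 and 902 in P1 untreated libraries. They were 474 and 605 in P4 treated and 723, 804 and 963 in P4 untreated libraries, without overlap. The log2 differences were -0.35 (SE 0.179, adjusted p = 0.487) at P1 and -0.62 (SE 0.201, adjusted p = 0.306) at P4, and -0.47 (SE 0.134, adjusted p = 0.111) in the additive model (limma). With the long-transcript index as a covariate the P4 difference was -0.80 (adjusted p = 0.662), and with Xist it was -0.74 (adjusted p = 0.619). The sum over 8 neuronal markers was 13084 to 16696 in P1 treated and 15811 to 20901 in P1 untreated libraries, and 13416 to 14230 against 12981 to 17860 at P4, and its part in the Dner values was not tested. Dlk2, a membrane protein related to Dlk1, showed log2 differences of -0.15 (SE 0.215) and -0.12 (SE 0.24), with groups that overlapped at both ages.

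Whether treatment acted differently at the ages was tested as an interaction. None of the 18400 genes was called (0%; adjusted p under 0.05 in limma), and 5.8% had an unadjusted p under 0.05. The paper, which used DESeq2, reported several genes whose expression depended significantly on age and treatment together. The count of 0 here therefore does not show that there were none. The difference between the P1 and the P4 log2 fold change was -0.09 (95% interval -0.71 to 0.53) for Jag1, 0.27 (-0.33 to 0.87) for Dner and 0.51 (-0.27 to 1.30) for Dll4, and 0 of 10 members had an unadjusted p under 0.05.

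Between the ages, 1 member was called in untreated and 1 in treated pups. Jag2 was higher at P1 than at P4 in untreated pups, at 2391, 2154 and 1598 against 1182, 1091 and 1306, without overlap. The fold was 1.70 (log2 0.76, SE 0.232, 95% interval 0.25 to 1.28; adjusted p = 0.0412; limma), and Jag2 was the 1 member called, in a comparison in which 19.9% of all tested genes were called, 10.5% higher and 9.38% lower. Unadjusted p-values were under 0.05 for 2 members (Jag2 and Notch2, both higher), against 35.5% of all genes. The call is not firm. Over all tested genes, same-numbered untreated libraries correlated weakly in their deviations (0.115 to 0.136). Jag2 did not follow this, since replicate 3 was its lowest untreated library at P1 and its highest at P4. With the replicate number as a block the adjusted p of Jag2 was 0.0575 (limma). It was 0.0565 with Xist as a covariate, and leaving out 1 library at a time ended the call in 8 of 11 cases, with an adjusted p of up to 0.13 (without P1 untreated replicate 1), and left it without P1 treated replicate 1 or 2 or P1 untreated replicate 3. In treated pups Jag2 was at 1348, 2750 and 1821 against 1186 and 1378, which overlapped (log2 0.56, SE 0.26, adjusted p = 0.191).

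Notch2 was at 1234, 957 and 1024 in P1 untreated and 858, 539 and 766 in P4 untreated libraries, without overlap (log2 0.59, SE 0.221, adjusted p = 0.0831; limma). Notch3 and Dlk2 also had untreated ranges that did not overlap, with log2 differences of 0.19 and 0.37 and adjusted p of 0.302 and 0.25. The sum of pericyte and smooth muscle markers was 4066 to 4619 in P1 untreated and 1642 to 3315 in P4 untreated libraries, also without overlap, and its part in the Notch3 values was not tested. Single markers did not follow the sum: of the 9 that were tested, 0 were called, and their median log2 difference was -0.11. In all, 4 members (Jag2, Notch2, Notch3 and Dlk2) were above without overlap at P1 and 0 below, against 22% of all tested genes above, 19.3% below and 41.3% either way. The log2 difference between untreated ages was 0.10 for Jag1 (95% interval -0.31 to 0.52) and -0.06 for Dner (-0.46 to 0.34).

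Dll4 was the member called between treated ages. Its counts were 265, 373 and 276 in P1 treated and 165 and 147 in P4 treated libraries, a fold of 1.93 (log2 0.95, SE 0.264, 95% interval 0.36 to 1.53; adjusted p = 0.0444; limma). In this comparison 11.1% of all tested genes were called, 5.63% higher and 5.42% lower. The unadjusted p was under 0.05 for 1 member, Dll4, against 27.5% of all genes. All P1 treated libraries were low in Xist and both P4 treated libraries were high, and with Xist as a covariate the log2 difference was 0.56 (adjusted p = 0.599). Leaving out 1 library at a time ended the call in 8 of 11 cases, with an adjusted p of up to 0.233 (without P4 treated replicate 3), and left it without P1 untreated replicate 3 or P4 untreated replicate 1 or 3. With the replicate number as a block the adjusted p was 0.0606. Dll4 and Notch3 were the members above without overlap at P1, with 0 below, against 21.8% of all genes above, 21.3% below and 43.1% either way. In untreated pups Dll4 was at 315, 313 and 200 against 244, 201 and 163, which overlapped (log2 0.43, adjusted p = 0.22).

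The additive model, which uses all 11 libraries for the age term, called 3 members higher at P1 and 0 lower, where 13.6% of all tested genes were called higher, 12.2% lower and 25.8% either way. Jag2 was 1.60-fold higher at P1 (log2 0.67, SE 0.168, adjusted p = 0.01), Dll4 1.58-fold (log2 0.66, SE 0.185, adjusted p = 0.0178) and Notch2 1.42-fold (log2 0.50, SE 0.16, adjusted p = 0.0321; limma). Jag2 was called under all 5 other settings tried for this model and after leaving out any 1 library. Dll4 was called in all of these but 1, missing at an adjusted p of 0.0592 without P4 treated replicate 3. Notch2 was called under the 5 settings and lost on leaving out any of 7 of the 11 libraries, namely P1 treated 1 and 2, P1 untreated 1 and 3, P4 treated 3 and P4 untreated 2 and 3, with an adjusted p of up to 0.0819. The sum over hair cell markers was 27321 to 46085 in P1 untreated and 43234 to 49030 in P4 untreated libraries, and that over endothelial markers 7985 to 11000 against 3894 to 7686. In treated libraries the hair cell sum was 30969 to 41674 at P1 and 45248 to 47763 at P4. The endothelial sum there was 3286 to 5342 against 3139 to 3320, which overlapped. Within these lists the genes were mixed. Of the 12 hair cell genes, 1 was called higher and 4 lower at P1 between untreated ages. Of the 14 endothelial genes 0 were called, with a median log2 difference of 0.13. The part of these markers in the Jag2 and Dll4 values was not tested.

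The ratio of Jag1 to Jag2 per kb does not depend on the scaling of a library, and the transcripts are close in length (5612 and 5106 bases). It was 12.9 ± 2.40 in P1 treated, 8.04 ± 0.871 in P1 untreated, 18.8 ± 3.25 (n = 2) in P4 treated and 12.7 ± 2.05 in P4 untreated libraries (n = 3 each otherwise). Treated libraries were above untreated ones of the same age without overlap, by 1.60-fold at P1 (two-sided exact permutation p = 0.1, the smallest that 3 against 3 allows) and 1.48-fold at P4 (exact p = 0.2, the smallest that 2 against 3 allows). The adjusted value is 0.4 for each over the 12 ratio tests made (3 ratios in 4 comparisons), so none passed. The ratio of Jag1 to Notch1 was 4.64 ± 0.117 in P1 treated and 4.45 ± 1.06 in P1 untreated libraries, which overlapped, and 4.88 ± 0.757 (n = 2) and 3.66 ± 0.640 at P4, which did not (exact p = 0.2).

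A further 59 Notch pathway genes, all tested, were listed by role. On treatment at P1, 1 was higher and 0 were lower, where 0.261% of all tested genes were called higher and 0.0924% lower. The gene called was Cd44, a cell surface receptor for hyaluronan, among 8 target genes. Cd44 was at 7238, 6590 and 7233 in P1 treated and 3408, 3929 and 2745 in P1 untreated libraries (log2 1.08, SE 0.136, adjusted p = 0.0136; limma). The other 5 lists, which hold other ligands, glycosylation enzymes, cleavage enzymes, endocytosis and turnover genes and the nuclear complex, had no call at P1. The gene with the largest test statistic in each of them was Nov (log2 -3.03, SE 0.704), Rfng, a glycosyltransferase (-0.20, SE 0.0818), Ncstn, a γ-secretase subunit (0.25, SE 0.0703), Aak1, an endocytic kinase (0.44, SE 0.15) and Cir1, a corepressor (-0.21, SE 0.111), with adjusted p from 0.126 to 0.501. At P4 none of the 59 was called, where 0.0543% of all tested genes were called. Cd44 was nearest in its list (log2 0.92, SE 0.152, adjusted p = 0.136; limma). In the other lists the nearest were Nov (-2.26, SE 0.787), Xxylt1 (0.35, SE 0.141), Aph1b (0.45, SE 0.149), Numb, an adaptor that opposes Notch (0.33, SE 0.0964), and Rbpj itself (0.25, SE 0.129), with adjusted p from 0.285 to 0.492. The paper, which used DESeq2, reported Cd44, Heyl and Hey2 as increased at P4. The count of 0 therefore does not show that these genes were unchanged. Before adjustment 8 genes were higher and 4 lower at P1 (p under 0.05), and 10 higher and 2 lower at P4, where 12.2% and 11.6% of all tested genes passed in either direction. The median log2 difference over the 59 genes was 0.06 at P1 and 0.13 at P4, beside 0.00 over all genes tested at either age.

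In the additive model 4 of the 59 were higher and 1 lower in treated pups, where 0.62% of all tested genes were called higher and 0.598% lower. The higher ones were Cd44 (log2 1.01, adjusted p = 0.00109), the transcriptional repressors Heyl (0.70, adjusted p = 0.0172) and Hey2 (0.44, adjusted p = 0.0458), and Aph1b, a γ-secretase subunit (0.45, adjusted p = 0.0473). Heyl was at 7533, 8774 and 7628 against 4191, 5771 and 3844 at P1, and at 7433 and 7981 against 5724, 4616 and 5483 at P4. The lower one was Nov, a secreted CCN family protein that can bind Notch (log2 -2.69, adjusted p = 0.0368; limma), whose values ranged from 726 to 28939. Hes1, another target, was not called on treatment at P1 or P4. Hes5 was at 99, 712 and 376 against 737, 571 and 501 at P1 and at 222 and 157 against 502, 336 and 263 at P4. Not all Hes and Hey genes went up with treatment. In the additive model Hes5 was at log2 -0.96 (SE 0.407, adjusted p = 0.268) and Hey1 at -0.35 (SE 0.0917, adjusted p = 0.0885; limma), and neither was called.

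**Figure D5:**
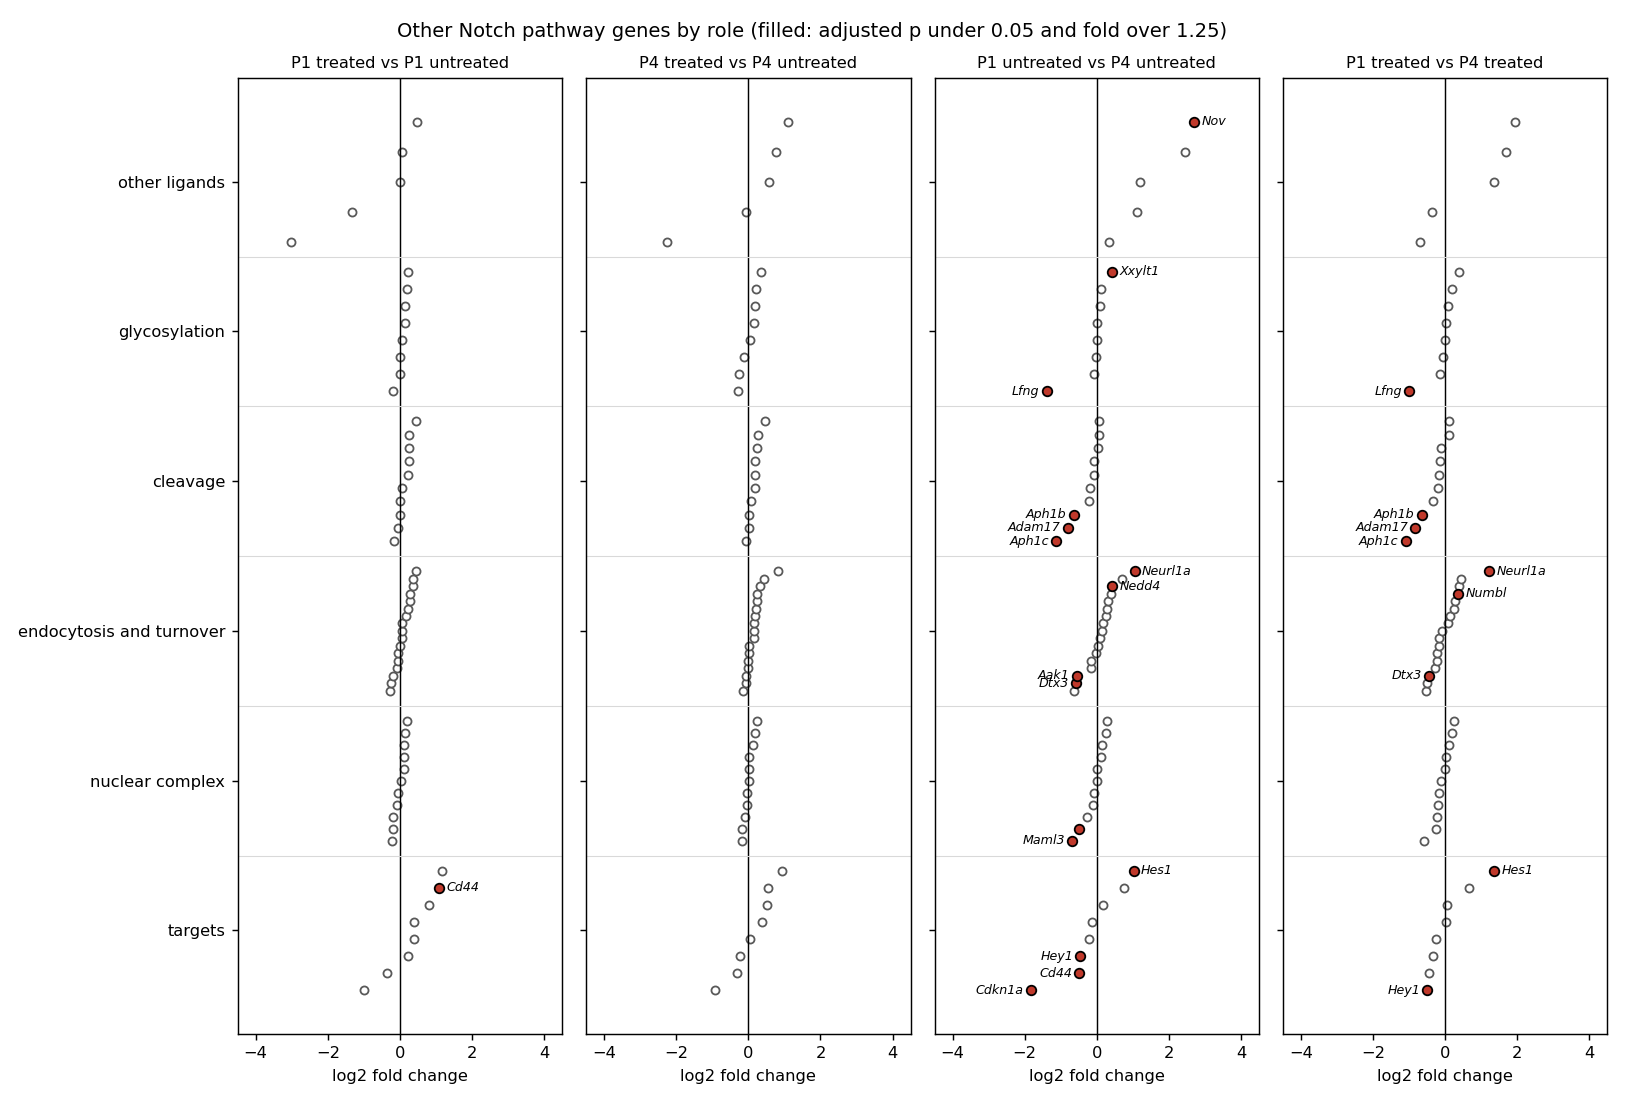
Log2 fold changes of 59 other Notch pathway genes by role. Each point is 1 gene, sorted within its list, and filled points, most of them named, were called (adjusted p under 0.05 and a log2 difference over 0.32 in size). Cd44 is the filled gene on treatment at P1 (1.08), there is none at P4, and 16 and 9 genes are filled between untreated and between treated ages.

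Between untreated ages, 5 of the 59 were higher and 11 lower at P1, where 10.5% of all tested genes were called higher and 9.38% lower. Lfng, the glycosyltransferase that alters which ligands Notch1 answers to, was lower at P1 (2902, 3589 and 2639 against 6702, 8554 and 8661; log2 -1.39, SE 0.13, adjusted p = 0.000155). Cleavage enzymes that were lower were Aph1c (log2 -1.12), Adam17 (-0.81) and Aph1b (-0.64). Of the nuclear complex, the coactivator Maml3 (-0.68) was lower at P1, and of the endocytosis and turnover genes Dtx3 (-0.57) and Aak1 (-0.55). The higher ones were Nov (2.71, adjusted p = 0.0214), Nedd4 (0.43), Xxylt1 (0.43) and a pair described next. Hes1 was higher at P1 (1658, 2751 and 1779 against 900, 1020 and 1055; log2 1.02, SE 0.174, adjusted p = 0.00294), as was Neurl1a, a ubiquitin ligase that acts on ligands (log2 1.06, adjusted p = 0.000506). Among targets Cdkn1a, the cell cycle inhibitor p21, was lower (log2 -1.83, adjusted p = 0.000663), with Cd44 (-0.48) and Hey1 (-0.45). Between treated ages, 3 were higher and 6 lower, where 5.63% of all tested genes were called higher and 5.42% lower. They included Hes1 (log2 1.36, adjusted p = 0.00341), Neurl1a (1.22, adjusted p = 0.00145), Lfng (-1.0, adjusted p = 0.00377) and the same cleavage genes (Aph1c -1.10, Adam17 -0.82, Aph1b -0.65), with Dtx3 (-0.45), Hey1 (-0.50) and Numbl (0.36). For the interaction 0 of the 59 were called, and the largest statistic was that of Cdkn1a (1.38, SE 0.346, adjusted p = 0.768; limma). The paper named Cdkn1a among the genes whose expression depended significantly on age and treatment together. With Xist as a covariate 0 of the 59 were called between treated ages, and 0 on treatment at P1. Over all tested genes the calls then fell from 2034 to 28 and from 65 to 7. Xist separated the treated ages completely and was partly aligned with treatment at P1, so these counts of 0 cannot decide whether the calls hold.

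The tested genes whose log2 values followed each member most closely over the 11 libraries are given as a description. For Jag1 they were Kpna1 (Pearson r = 0.981) and Med14 (0.968), for Jag2 Slc7a14 (0.963) and Enox1 (0.96), and for Dll4 Rbl1 (0.967) and Tut1 (0.962). For Notch1 they were Rab15 (0.949) and Map7 (0.929), for Notch2 Cep192 (0.967) and Ano6 (0.95), and for Notch3 Gpr161 (0.923) and Bicd2 (0.918). For Notch4 they were Trim68 (0.906) and 9330175E14Rik (0.859), for Dll1 Prkx (0.878) and Trnp1 (0.864), for Dlk2 Dfnb59 (0.948) and Cfap206 (0.917), and for Dner Ikzf1 (0.957) and Ttyh3 (0.898). The libraries share their group structure and their long-transcript index, and each pair was chosen as the closest among all other genes tested.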

How the data were processed

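RNA was reverse transcribed with SMARTer V4, sequenced as single reads, aligned with STAR 2.5.2b to mm10 with Ensembl gene models, counted with featureCounts for quality control and quantified with Sailfish. The deposited values are treated as a score, because the authors deposited them as normalized counts in whole numbers, so each library's read depth cannot be read from them. The labels and methods do not say whether they rest on the featureCounts or the Sailfish values. The table has 27755 entries in 11 columns. For an identifier listed more than once the first entry was kept, and 1 repeated entry was left out. Genes with a mean of at least 10 were tested with limma 3.58.1 in R 4.3.3 on log2(normalized count + 1), with 4 group means and a mean-variance trend. Adjusted p-values are Benjamini-Hochberg over all 18400 genes. A fold change on this scale understates changes of low genes. Each library is a different pup, which may share a litter. Same-numbered untreated libraries correlated in their deviations (0.115 to 0.136 over 3 pairs), in the P1 to P4 comparison only (other pairs 0.026 or less), so the block was tried there and elsewhere. Transcript lengths and coordinates come from GENCODE M21. The members and gene lists were chosen with earlier results of these data known. The scripts were tested on simulated data. The rule for names took all 10 members, up to 4 called genes of each other list by adjusted p (or, with none called, the gene with the largest test statistic) and the 2 genes most like each member. Genes named from the additive model and Hes5 were chosen after their values were seen, as were the long-transcript index, the ratios and the promoter motifs. Alternatives covered the pseudocount, filter, normalization, samples in the fit, prior, thresholds, Xist, the replicate block and leaving out each library. A gene of the lists is counted but its own result is not reported here.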

Additional observations from a re-analysis of the deposited data

How the results depend on the processing

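The counts of members called on treatment at P1 (0), on treatment at P4 (0) and for the interaction (0) were unchanged under every alternative run: pseudocount 8, no filter, median of ratios, quantile normalization, only the groups compared (for the interaction, the same fit), no trend, the replicate block, Xist or the long-transcript index as a covariate, an adjusted p under 0.1, no fold threshold, and leaving out each library. All of these were variants of the same limma fit, which called 65 genes on treatment at P1 and 10 at P4. The paper used DESeq2, called more genes at each age and reported Jag1 as increased at both. A count of 0 here therefore does not show that Jag1 was unchanged. The count between untreated ages (1, Jag2) became 0 without a filter, without the trend, with the replicate block and with the Xist covariate, 2 (Jag2 and Notch2) at an adjusted p under 0.1 and with the long-transcript index, and 0 to 1 without 1 library. The count between treated ages (1, Dll4) became 0 without a filter, with quantile normalization, with only the groups compared, without the trend, with the replicate block and with the Xist covariate, 3 (Jag2, Dll4 and Notch3) with the long-transcript index, and 0 to 1 without 1 library. In the additive model the treatment count of 0 became 1 (Jag1) with the median of ratios and with pseudocount 8 and was 0 to 1 without 1 library, and the age count of 3 was 1 to 3 without 1 library. Of the other Notch pathway genes, 1 called on treatment at P1 became 2 with pseudocount 8 or the median of ratios (Cd44 and Heyl), 3 with the long-transcript index (these and Cdkn1a) and 0 with the Xist covariate, and 9 between treated ages became 0 with the Xist covariate. Over all genes the counts moved more: the 65 called on treatment at P1 ran from 7 (Xist covariate) to 371 (without P1 treated replicate 1), the 10 at P4 from 2 (Xist covariate) to 22 (without P4 untreated replicate 3), the 3659 between untreated ages from 1807 (Xist covariate) to 4757 (adjusted p under 0.1), the 2034 between treated ages from 28 (Xist covariate) to 3050 (adjusted p under 0.1), and the 0 of the interaction from 0 to 14 (without P4 treated replicate 3). The cause of these moves was not tested.

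Log2 differences that were not called and changed sign were, on treatment at P1, Notch2 (-0.16 with Xist, -0.04 with the long-transcript index, -0.12 to 0.26 without 1 library), Notch4 (0.04 with Xist), Dll4 (-0.08 with Xist, -0.06 to 0.27), and without 1 library Notch3 (-0.06 to 0.14), Jag2 (-0.37 to 0.15), Dll1 (-0.13 to 0.47) and Dlk2 (-0.33 to 0.12). On treatment at P4 they were, with the long-transcript index, Notch1 (-0.16), Notch2 (-0.20) and Jag2 (-0.43), with Xist Notch3 (0.00) and Dll1 (0.00), with the block Dlk2 (0.00), and without 1 library Notch3 (-0.15 to 0.05), Jag2 (0.00 to 0.21), Dll1 (-0.45 to 0.06) and Dlk2 (-0.31 to 0.08). Between untreated ages they were Notch1 (0.01 with Xist, -0.37 to 0.02 without 1 library), Jag1 (-0.06 to 0.28), Dll1 (-0.16 to 0.36) and Dner (-0.16 to 0.05). Between treated ages they were Notch1 (-0.28 with Xist, -0.04 to 0.19 without 1 library), Notch4 (0.08 with Xist) and Jag1 (0.00 with quantile normalization, -0.01 with the replicate block, -0.15 with Xist, -0.10 to 0.14 without 1 library). For the interaction they were Jag1 (0.26 with the long-transcript index, -0.26 to 0.08 without 1 library) and Dll4 (-0.07 with Xist). The replicate block ended the calls of Jag2 and Dll4 and no other call among the members. Precision was lowest for the rare members: the SE of the log2 difference over the 4 comparisons was 0.343 to 0.384 for Dll1 and 0.365 to 0.408 for Notch4, against 0.187 to 0.209 for Jag1.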
